A study of Saccharomyces cerevisiae with 6 samples.

Results

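The mating genes of a cells were described here as 10 genes chosen by name: MFA1, MFA2, STE6, BAR1, STE2, FUS3, KAR4, FUS1, AGA1 and AGA2. All 10 were measured, with 7 spots each, among 4073 genes with a symbol on the arrays. The samples were cells of the budding yeast Saccharomyces cerevisiae that lack RPD3, the gene of a histone deacetylase (3 arrays), and wild-type cells (3 arrays), both in the BY4741 background. Cultures of 200 ml grew to mid-log phase in rich YPD medium, and on each array cells held at 39 °C for 20 minutes were set against cells of the same strain at 25 °C. Replicates are biological, from 3 independent cultures per strain, and the labels name no pheromone treatment. BY4741, a haploid laboratory strain of mating type a, also lacks all or part of HIS3, LEU2, MET17 and URA3, so these deletions are shared by all groups. The labels do not state the mating type or whether the rpd3 deletion strain was 1 clone.

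Haploid yeast come in the mating types a and alpha. An a cell secretes the peptide a-factor and carries the receptor for alpha-factor, the peptide of its partner. Binding of alpha-factor releases a G protein that starts a chain of kinases ending in the MAP kinase Fus3, which frees the transcription factor Ste12 to induce genes for cell adhesion, growth towards the partner and fusion. Without pheromone, many of these genes are transcribed at a basal level. The a-specific genes MFA1, MFA2, STE6, BAR1, STE2 and AGA2 also need the transcription factor Mcm1.

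Values are log2 ratios of the channels of an array, averaged over the spots of a gene. The ratio is likely heated over control cells, since the response is stated against the control in the series' design. HSP12, a heat shock protein gene, had the highest mean ratio of all genes in both strains, 6.99 in the mutant and 6.39 in wild type. The sources used here do not give the sign or the log base. The control was labelled Cy5 and the heated sample Cy3 on every array, so a dye effect and heat cannot be told apart within a strain. Each ratio holds the control level as well as the heated level, and a difference between strains in the ratio may lie in either. In cultures, a smaller share of cells that express a gene and less RNA per cell cannot be told apart. A gene is called where limma's Benjamini-Hochberg adjusted p over all 4073 genes is under 0.05, and "rose", "fell", "higher" and "lower" refer to such calls.

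Across genes, ratios correlated with r = 0.851 to 0.956 between rpd3 deletion arrays, with 0.952 to 0.980 between wild-type arrays, and with 0.504 to 0.853 between the strains. RPD3 itself averaged -0.073 ± 0.040 in the mutant and 0.22 ± 0.034 in wild type (SD, n = 3 each). Both channels of a mutant array come from cells without the gene, so this ratio checks the labels only weakly. HIS3, LEU2, MET17 and URA3, taken as spots without a full transcript, had medians of -0.09, -0.08 and -0.12 on the mutant arrays, against 0.25, 0.12 and 0.06 on the wild-type arrays. Their median strain difference, mutant minus wild type, was -0.26, while that of all genes was 0.02. A strain difference of that size is therefore also seen where no full transcript is present.

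The mating genes mostly had lower RNA in heated cells of both strains. In the rpd3 deletion 7 of 10 fell and 0 rose, where 31.9% of all genes fell. In wild type 8 of 10 fell and 0 rose, where 36.3% of all genes fell. The 10 genes were chosen with earlier results of these data known, so these counts describe them and test nothing. Their median ratio was -0.45 in the mutant and -0.60 in wild type, against 0.0026 and -0.05 over all genes tested. MFA1, BAR1, STE2, FUS3, AGA1 and AGA2 fell in both strains, which 21.0% of all genes did. ASG7, a further a-specific gene that is not among the 10, went the other way and rose in wild type (0.45, limma adjusted p = 0.0291). In the mutant ASG7 was at 0.39 and not called (limma adjusted p = 0.052). The strains then differed gene by gene: AGA1, STE6 and FUS1 had higher ratios in the mutant, MFA2 and BAR1 lower ones, and the other 5 were not called. That is 5 of 10 genes called, where 45.8% of all genes were, so differing between strains was about as frequent here as elsewhere. The arrays of the strains did not overlap for the same 5 genes, against 58.4% of all genes.

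**Figure D1:**
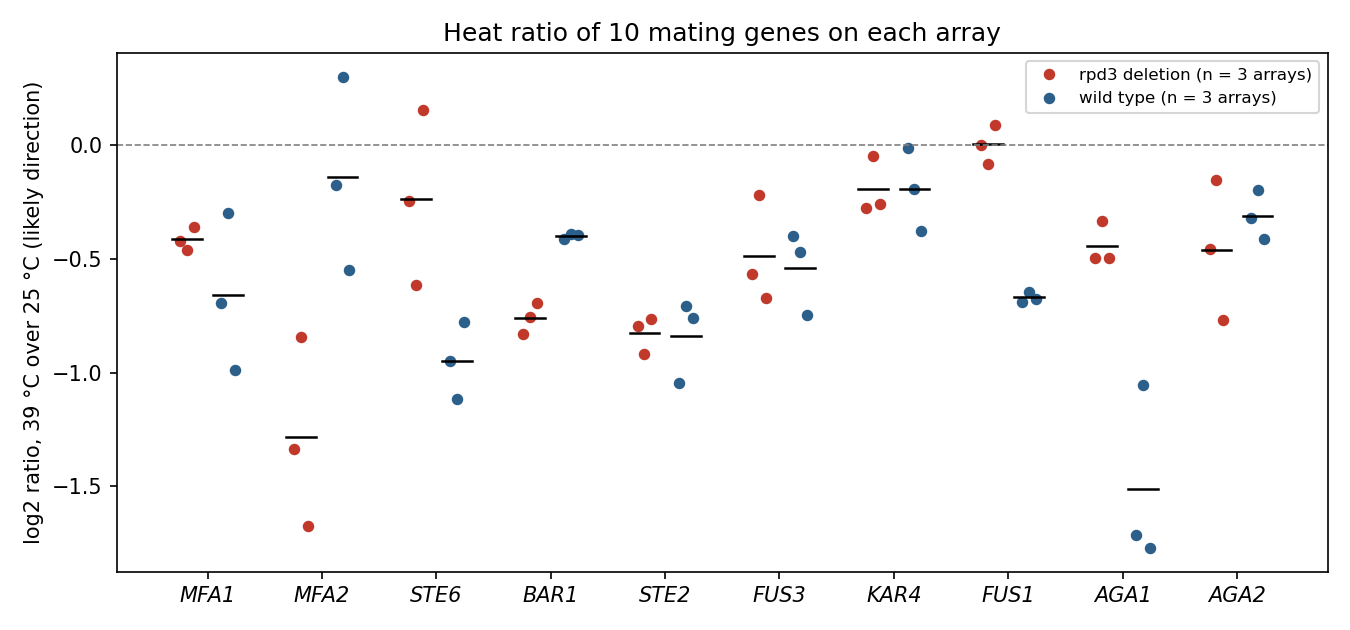
Log2 heat ratio (vertical axis) of the 10 mating genes (horizontal axis) on each rpd3 deletion array (red) and wild-type array (blue), with a black bar for the mean of 3 arrays. Nearly all points lie below 0; the strains do not overlap for MFA2, STE6, BAR1, FUS1 and AGA1.

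Of the genes of the pheromone, MFA2 differed between the strains and MFA1 was not called. MFA1 and MFA2 both encode a precursor of a-factor. MFA2 had ratios of -1.33, -0.85 and -1.68 on the 3 mutant arrays, against -0.18, 0.30 and -0.55 on the wild-type arrays. Every mutant array was below every wild-type array. MFA2 fell 2.44-fold in the mutant (-1.28 ± 0.42, SD, n = 3, limma adjusted p = 0.000774), while its wild-type mean of -0.14 ± 0.43 did not differ from 0 (adjusted p = 0.528). The strain difference was -1.14 ± 0.27 (SE, adjusted p = 0.0127), the lowest of the 10 genes and rank 116 from the lowest among all 4073.

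MFA1 lay at -0.42, -0.46 and -0.36 in the mutant, against -0.70, -0.30 and -0.99 in wild type. The mutant arrays were close together and fell inside the wider range of wild type. MFA1 fell in both strains (adjusted p = 0.0195 in the mutant and 0.00218 in wild type), and its strain difference was 0.25, with a 95% confidence interval from -0.16 to 0.65 (limma adjusted p = 0.272). The ratio of MFA2 minus that of MFA1 was -0.91, -0.38 and -1.31 on the mutant arrays, against 0.52, 0.60 and 0.44 on the wild-type arrays. This relation between the pair thus had another sign in each strain, with a two-sided exact permutation p of 0.1, the smallest that 3 arrays against 3 allow. The pair AGA1 and AGA2 was compared in the same way, and the adjusted p over these 2 pairs is also 0.1 by the exact permutation test. Both pairs were chosen after the values were seen.

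STE6 encodes the membrane transporter that exports a-factor. Its ratios were -0.25, -0.62 and 0.15 on the mutant arrays, against -0.95, -1.12 and -0.78 on the wild-type arrays. Only on mutant array 3 was STE6 above 0. It fell 1.93-fold in wild type (-0.95 ± 0.17, adjusted p = 0.0007) and had a mean of -0.24 ± 0.39 in the mutant (adjusted p = 0.178; SD, n = 3 each). The strain difference was 0.71 ± 0.20 (SE, limma adjusted p = 0.0243). That call did not hold when wild-type array 1 (adjusted p = 0.0803) or 2 (0.0919) or mutant array 1 (0.0728) was left out, and without mutant array 3 STE6 was called as falling in the mutant too (-0.43, adjusted p = 0.0169).

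STE2 and BAR1, whose products bind or break down the partner's pheromone, fell in both strains. STE2 encodes the receptor for alpha-factor. Its ratios were -0.79, -0.92 and -0.77 in the mutant, against -1.05, -0.71 and -0.76 in wild type, so that the mutant arrays lay inside the range of wild type. It fell 1.77-fold in the mutant (adjusted p = 0.000146) and 1.79-fold in wild type (adjusted p = 0.000103). The strain difference was 0.01, with a 95% confidence interval from -0.28 to 0.30. That interval leaves out the size of difference measured for AGA1 or MFA2.

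BAR1 encodes a secreted protease that breaks down alpha-factor. It had ratios of -0.83, -0.76 and -0.70 in the mutant, against -0.41, -0.39 and -0.40 in wild type. The arrays of each strain were close together and the strains did not overlap. BAR1 fell 1.69-fold in the mutant and 1.32-fold in wild type (adjusted p = 6.36e-05 and 0.00126), and the strain difference was -0.36 ± 0.095 (SE, limma adjusted p = 0.0189). With every array centred on HIS3, LEU2, MET17 and URA3 it was -0.12 (adjusted p = 0.411), and the call was also lost without wild-type array 1 (0.0575) or 2 (0.059) or mutant array 1 (0.101).

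Of the kinase and the transcription factor among the members, FUS3 fell and KAR4 was not called in either strain. FUS3 encodes the MAP kinase of the pathway and had ratios of -0.57, -0.22 and -0.68 in the mutant, against -0.40, -0.47 and -0.75 in wild type. It fell 1.40-fold and 1.45-fold in these strains (adjusted p = 0.00596 and 0.00346). The strain difference of FUS3 was 0.05, with a 95% confidence interval from -0.31 to 0.42. KAR4 encodes a factor that works with Ste12 on genes of nuclear fusion. It had ratios of -0.28, -0.05 and -0.26 in the mutant, against -0.01, -0.20 and -0.38 in wild type, all below 0. Its means were -0.20 ± 0.13 in the mutant and -0.20 ± 0.18 in wild type (SD, n = 3 each; adjusted p = 0.0977 and 0.0967), and the difference had an interval from -0.31 to 0.31. With arrays centred on the 4 deleted genes, KAR4 was called as falling in wild type (-0.34, adjusted p = 0.0079).

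FUS1, the fusion gene, fell in wild type and was not called in the mutant, and the difference itself was called. Its membrane protein acts where mating cells join, and the gene is a classic reporter of Ste12 activity. FUS1 lay at 0.00050, -0.08 and 0.09 on the mutant arrays, against -0.69, -0.65 and -0.68 on the wild-type arrays. The wild-type arrays were nearly equal and every mutant array was above them. It fell 1.59-fold in wild type (adjusted p = 9.58e-05) and had a mean of 0.0010 ± 0.085 in the mutant (adjusted p = 0.991; SD, n = 3). The strain difference of 0.67 ± 0.097 (SE, adjusted p = 0.00214) was called under every alternative run, with values from 0.59 to 0.91.

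The 7 spots of FUS1 were less alike in the mutant. The SD over its spots was 0.257, 0.100 and 0.139 on the mutant arrays, against 0.028, 0.026 and 0.040 on the wild-type arrays. A larger spread in the mutant was not particular to FUS1. The median spot SD of the 10 members was 0.067 on the mutant arrays and 0.039 on the wild-type arrays. For the 4 deleted genes it was 0.133 and 0.059. The 4 deleted genes spanned 0.0775 to 0.334 on the mutant arrays and 0.0510 to 0.156 on the wild-type arrays. FUS1 thus lay within their range in the mutant and below it in wild type. The part of this spot spread in the strain difference of FUS1 was not tested.

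AGA1 and AGA2 encode the subunits of a-agglutinin, the adhesin by which an a cell sticks to its partner: Aga1 anchors the complex in the cell wall, and Aga2 binds. AGA1 is not restricted to a cells. Its ratios were -0.50, -0.34 and -0.50 on the mutant arrays, against -1.71, -1.05 and -1.77 on the wild-type arrays. AGA1 had the lowest mean ratio of the 10 genes in wild type, though STE6 was lower on wild-type array 2, and every mutant array of AGA1 lay above its wild-type arrays. It fell 2.85-fold in wild type (-1.51 ± 0.40, SD, n = 3, adjusted p = 5.38e-05) and 1.36-fold in the mutant (-0.44 ± 0.093, adjusted p = 0.0243). The strain difference was 1.07 ± 0.20 (SE, limma adjusted p = 0.00497), rank 268 from the highest among all genes. The smaller fall in the mutant was not called without mutant array 1 (adjusted p = 0.108) or 3 (0.0623) or with arrays centred on the deleted genes (-0.35, 0.0656).

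AGA2 had ratios of -0.46, -0.15 and -0.77 in the mutant, against -0.32, -0.20 and -0.41 in wild type. The wild-type arrays lay inside the range of the mutant. It fell in both strains (adjusted p = 0.0101 in the mutant and 0.0473 in wild type), with a strain difference of -0.15 and a 95% confidence interval from -0.54 to 0.24. The wild-type call was lost without any 1 of the wild-type arrays (adjusted p = 0.154, 0.0843 and 0.177 without arrays 1, 2 and 3) and without mutant array 1 (0.0803). The spots of AGA2 spread most of all members: their SD was 0.200, 0.426 and 0.563 on the mutant arrays, against 0.073, 0.066 and 0.044 in wild type. On mutant array 3 its lowest spot was at -2.04 and its highest at -0.51. The ratio of AGA1 minus that of AGA2 was -0.04, -0.18 and 0.27 in the mutant, against -1.39, -0.86 and -1.36 in wild type (two-sided exact permutation p = 0.1).

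**Figure D2:**
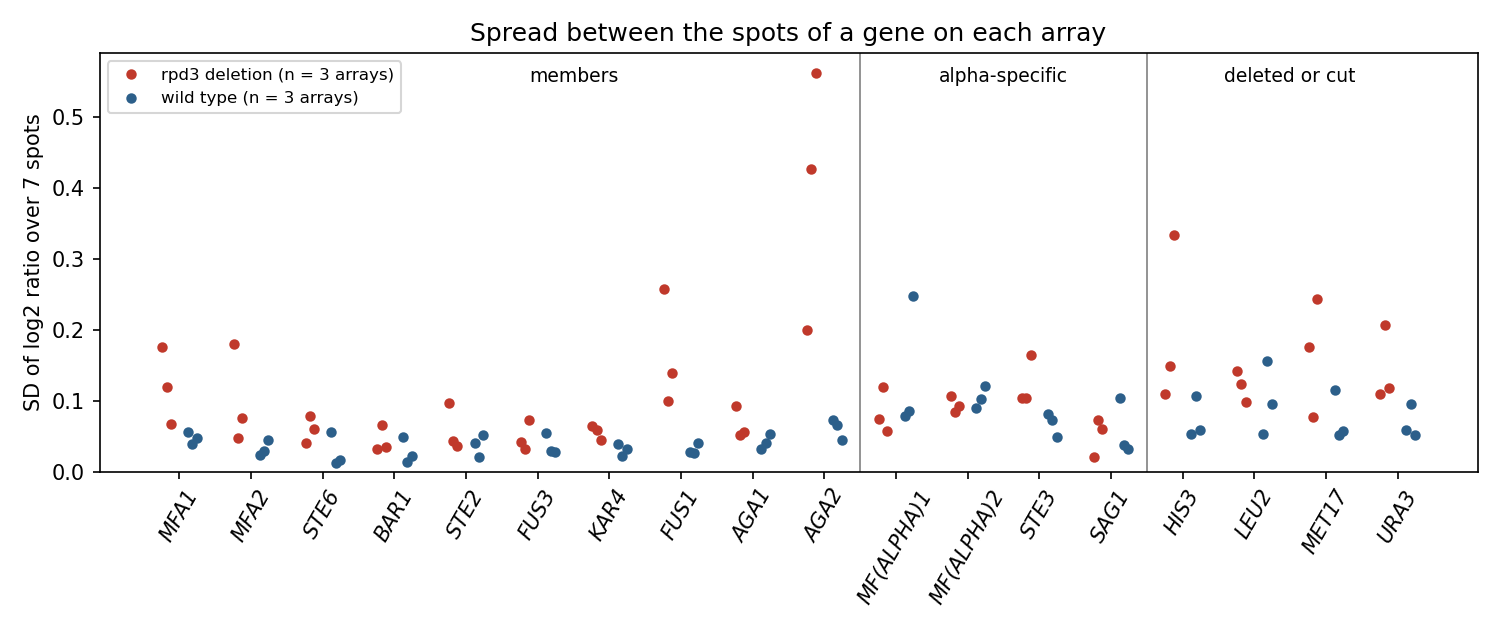
SD of the log2 ratio over the 7 spots of a gene (vertical axis) on each rpd3 deletion array (red) and wild-type array (blue), for the mating genes, the alpha-specific genes and the 4 genes deleted or cut in BY4741. AGA2 reaches 0.563 and FUS1 0.257 in the mutant; the other 8 mating genes stay at or below 0.179.

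**Figure D3:**
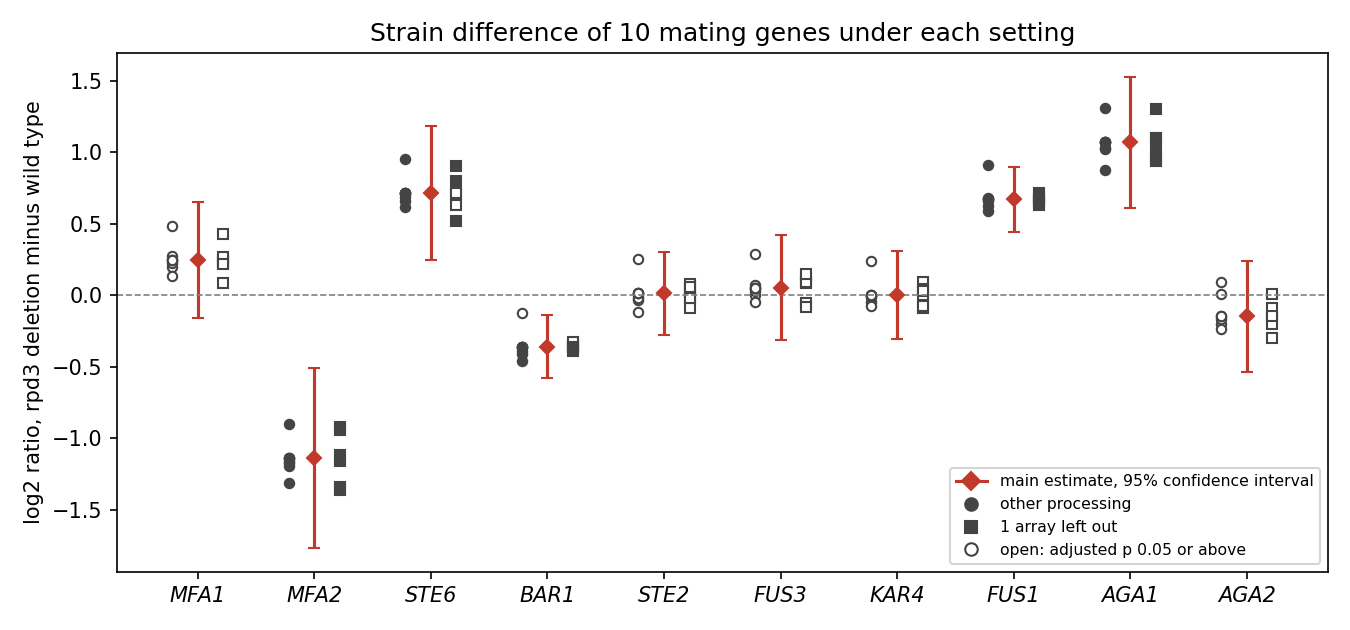
Strain difference in log2 ratio, rpd3 deletion minus wild type (vertical axis), of the 10 mating genes: red diamonds with 95% confidence intervals show the reported estimate, circles other processing, squares 1 array left out, and open symbols an adjusted p of 0.05 or above. AGA1, FUS1 and MFA2 stay called throughout, and the calls of STE6 and BAR1 do not.

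The label of a cells could be checked only in part, since ratios hold no expression level. Alpha-specific genes, which are silent in a cells, would give spots without signal. The spread between spots had a median of 0.088 for these 4 genes on the mutant arrays and 0.083 on the wild-type arrays, against 0.076 and 0.041 for 7 a-specific genes. For the 4 deleted genes these medians were 0.133 and 0.059. The alpha-specific genes were not alike: the median spot SD over the 6 arrays went from 0.049 for SAG1 to 0.097 for MF(ALPHA)2. MF(ALPHA)1, MF(ALPHA)2, STE3 and SAG1 had a median ratio of -0.20, -0.10 and -0.16 on the mutant arrays, against 0.24, 0.18 and 0.01 on the wild-type arrays. Of the 4, 0 rose and 2 fell in the mutant, where 33.7% of all genes rose and 31.9% fell. In wild type 2 rose and 0 fell, where 29.7% of all genes rose and 36.3% fell. A lower ratio in the mutant was called for 3, as for 21.0% of all genes. MF(ALPHA)1 among these differed by -0.29 (limma adjusted p = 0.0454), about as much as the deleted genes LEU2 and HIS3 (-0.29 each). LEU2 and HIS3 were just short of a call (limma adjusted p = 0.056 and 0.0501). Both were called with arrays centred on all genes (0.0307 and 0.0326) or quantile normalized (0.0210 and 0.0232). STE3, the gene of the a-factor receptor, differed most: it lay at 0.08, 0.13 and -0.10 in the mutant, against 0.61, 0.84 and 0.92 in wild type (difference -0.75 ± 0.12, SE, limma adjusted p = 0.00343). On every wild-type array STE3 was above the median of the 4 deleted genes. SAG1, the gene of alpha-agglutinin, differed by -0.39 (adjusted p = 0.0492), a call lost with arrays centred on the deleted genes (-0.15, 0.445) and when any 1 array other than mutant array 2 was left out.

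Of 57 further measured genes of the pathway, taken from lists of general knowledge, 19 rose and 19 fell in the mutant, where 33.7% of all genes rose and 31.9% fell. In wild type 14 rose and 20 fell, where 29.7% of all genes rose and 36.3% fell. For the strain difference 16 were higher in the mutant and 7 lower, against 24.8% and 21.0% of all genes. These shares are near the background, so the further genes as a whole were no more often called than other genes. The count of strain differences was 13 without wild-type array 1 or 2 and 11 without mutant array 1, in place of 23.

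Among the regulators of transcription, STE12 differed most between the strains. STE12, the transcription factor of the pathway, had ratios of 0.09, -0.06 and 0.41 on the mutant arrays, against -1.31, -1.48 and -1.31 on the wild-type arrays. It fell in wild type (-1.37 ± 0.095, adjusted p = 1.9e-05) and was not called in the mutant (0.15 ± 0.24, adjusted p = 0.227; SD, n = 3 each). The strain difference of 1.52 ± 0.14 (SE, limma adjusted p = 0.000637) was the highest of the members and the 57 further genes. MCM1, which acts on a-specific genes and elsewhere, lay at 0.12, -0.06 and 0.21 in the mutant, against -0.42, -0.62 and -0.44 in wild type (difference 0.58 ± 0.12, adjusted p = 0.00664). Of 8 regulators, KAR4 included, 4 were higher in the mutant and 0 lower, where 24.8% of all genes were higher and 21.0% lower.

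Signalling genes near the receptor and in the kinase chain gave both outcomes. GPA1, which encodes the G protein alpha subunit, had ratios of 0.50, 0.36 and 0.75 in the mutant, against -0.56, -0.78 and -0.53 in wild type. It rose in the mutant and fell in wild type (adjusted p = 0.00196 and 0.000818), as 4.93% of all genes did, and its strain difference was 1.16 ± 0.14 (SE, adjusted p = 0.00101). SST2, which switches that subunit off, was at -0.16 ± 0.37 in the mutant and fell in wild type (-0.66 ± 0.14), a difference of 0.51 that was not called (adjusted p = 0.0625) but was called without mutant array 2 (0.72, adjusted p = 0.00294) and after centring on the deleted genes (0.75, 0.02). Of 7 genes of the receptor, G protein and adaptors, STE2 included, 1 was higher in the mutant and 1 lower, against the same 24.8% and 21.0% of all genes.

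FAR1, whose product stops the cell cycle in response to pheromone, fell less in the mutant. Its ratios were -0.48, -0.33 and -0.39 there, against -1.20, -1.10 and -1.35 in wild type, a difference of 0.81 ± 0.11 (SE, adjusted p = 0.00164). STE20, the kinase gene upstream of the chain, lay at 0.56, 0.19 and 0.47 in the mutant, against -0.34, -0.39 and -0.22 in wild type (difference 0.72 ± 0.13, adjusted p = 0.00415). FAR1 and STE20 were the 2 genes higher in the mutant among 13 of the MAP kinase cascade (24.8% of all genes), with 0 lower (21.0%), and FUS3 was among the 11 not called.

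**Figure D4:**
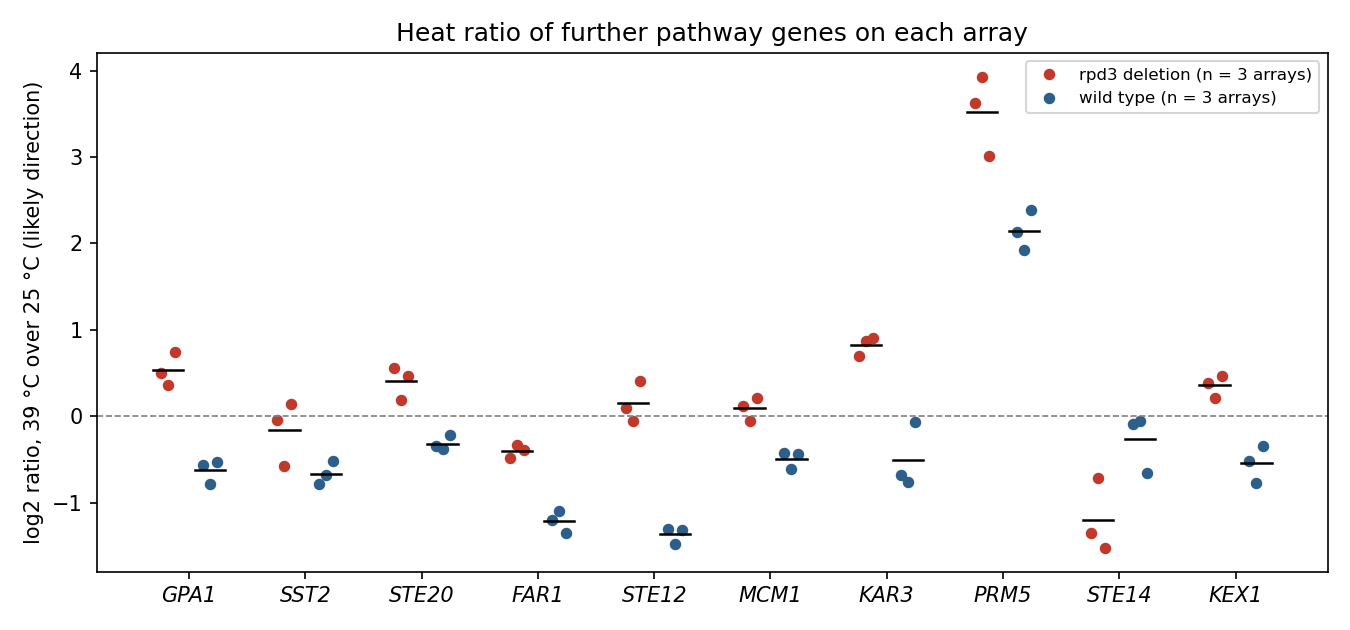
Log2 heat ratio (vertical axis) of 10 further pathway genes (horizontal axis) on each rpd3 deletion array (red) and wild-type array (blue), with a black bar for the mean of 3 arrays. The strains do not overlap for any of these genes other than SST2, and STE14 alone is lower in the mutant.

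Among 23 genes induced by pheromone for fusion and growth of the mating projection, 9 were higher in the mutant and 2 lower, against 24.8% and 21.0% of all genes. The 9 include FUS1 and AGA1, already described. Over all 23 genes, the median ratio was 0.0010 in the mutant and -0.16 in wild type. PRM5, a pheromone-regulated membrane protein gene that cell wall stress also induces, rose most: it lay at 3.62, 3.93 and 3.01 in the mutant, against 2.13, 1.92 and 2.39 in wild type (difference 1.37 ± 0.24, SE, adjusted p = 0.00414). KAR3, the kinesin gene of nuclear fusion, had ratios of 0.70, 0.87 and 0.91 in the mutant, against -0.69, -0.76 and -0.07 in wild type (difference 1.33 ± 0.19, adjusted p = 0.00208). Its fall in wild type was not called when wild-type array 1 (adjusted p = 0.0908) or 2 (0.0895) was left out. Induced genes were therefore not uniform: PRM5 rose in heated cells of both strains while AGA1 fell in both.

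Maturation and export of the pheromones involved 11 genes, STE6 included. In this group 3 were higher in the mutant and 4 lower, against 24.8% and 21.0% of all genes. STE14 encodes a methyltransferase of a-factor maturation. Its ratios were -1.35, -0.72 and -1.53 in the mutant, against -0.09, -0.05 and -0.66 in wild type, a difference of -0.94 ± 0.25 (SE, limma adjusted p = 0.0199). The STE14 call did not hold when wild-type array 1 (adjusted p = 0.0817) or 2 (0.0793) or mutant array 1 (0.0727) was left out. KEX1, a protease gene of alpha-factor maturation, lay at 0.39, 0.21 and 0.47 in the mutant, against -0.52, -0.78 and -0.34 in wild type (difference 0.90 ± 0.14, adjusted p = 0.00288).

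For the 3 mating genes with the largest strain differences, the genes with the most similar ratios over the 6 arrays were found by Euclidean distance. For MFA2 these were SUR7, a gene of membrane compartments (distance 0.305 on the log2 scale), OST4, a subunit of the oligosaccharyltransferase (0.391), and the flocculin gene FLO10 (0.396). Nearest to AGA1 were DPH5, an enzyme gene of diphthamide synthesis (0.440), the nucleolar GTPase gene NOG1 (0.458) and POL30, the sliding clamp of DNA replication (0.475). BUD3 of bud site selection (0.222), the tRNA methyltransferase gene TRM1 (0.236) and the helicase gene SEN1 (0.253) were nearest to STE6. No mating gene was among these 9.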

How the data were processed

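The authors deposited 1 table of log2 ratios per spot for 6 arrays of 2 channels (500 ng RNA each). Limma is named per the submitters' processing notes, without a version; the sources used here do not give background correction, normalization, log base or sign. Base 2 was read from their range. Of 45220 spots, 10 had no value, and 28532 were named by the platform's probe table with 1 symbol each. Symbols were updated with RefSeq's genes of assembly R64 (125 replaced; 4065 of 4073 genes matched), and spots averaged per gene and array.

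All arrays entered 1 limma 3.58.1 fit in R 4.3.3, with a mean per strain, eBayes (4 residual and 3.37 prior degrees of freedom) and Benjamini-Hochberg adjustment over 4073 genes. Simulated data for the strain difference (200 changed genes in each of 5 runs) gave 80.8% recovery of changes of 1 on the log2 scale. These runs changed 200 of 4073 genes, while 45.8% of genes were called in the data, so recovery in the data may differ. Scanner intensities were not analysed here; the number of arrays limits the precision. Members and gene lists were chosen with earlier results of these data known. Besides the members, the text names the 2 genes of each list with the largest strain difference, and the 3 nearest genes of the 3 most different members. HO, ASG7, HSP12, MF(ALPHA)1 and MF(ALPHA)2 were added after their values were seen.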

Additional observations from a re-analysis of the deposited data

Results flagged for a closer look

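The heat ratio of 5 mating genes differed between strains by limma's test of the difference (mutant minus wild type). It was 1.07 for AGA1, -1.14 for MFA2, 0.71 for STE6, -0.36 for BAR1 and 0.67 for FUS1. In all, 45.8% of genes differed in this test, and groups of 3 arrays were not searched for outlying samples.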

How the results depend on the processing

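No call of a member turned to the other direction under the alternatives run, 14 for the strain difference and 1 fewer, the replicate block, for the ratios within a strain. The number of members called, 7 in the mutant, 8 in wild type and 5 for the strain difference, ranged from 4 to 7, 7 to 8 and 3 to 5 when 1 array was left out. The lowest counts were those without mutant array 1 in the mutant, and without wild-type array 1 or 2 or mutant array 1 for the difference. Under other processing of all arrays, the members called ranged from 5 to 7 in the mutant, 7 to 9 in wild type and 4 to 5 for the difference. Centring on the deleted genes gave 5 in the mutant and 9 in wild type. In the mutant, AGA2 (adjusted p = 0.0526) and MFA1 (0.0842) were lost without mutant array 1, and MFA1 also after centring on the deleted genes (0.0515). The wild-type call of AGA2 was also lost with arrays centred on all genes (0.092), scaled (0.0537) or quantile normalized (0.0925). The strain difference of MFA2 had an adjusted p of up to 0.04995 with 1 array left out, and was -0.90 after the centring on deleted genes. That centring put the median strain difference of all genes at 0.26 and the share of higher genes among calls at 79.7%, against 54.2%; in wild type the share of rises was 32.8%, against 45.0%. For the strain difference over all genes it gave 1564 higher and 398 lower, in place of 1012 and 854. Leaving out mutant array 1 gave 643 and 450, wild-type array 1 gave 695 and 480, and wild-type array 2 gave 695 and 507. Leaving out mutant array 3 gave 898 and 703, and wild-type array 3 gave 949 and 788. Without mutant array 2 the counts were 1202 and 1016, above those with all arrays. The filter on spot spread (SD over 0.3 on any array) left 9 members, without AGA2. For the further pathway genes, the calls ranged from 31 to 36 in the mutant, 26 to 34 in wild type and 11 to 26 for the difference with 1 array left out, counts added after the data were seen. Replicate numbers did not pair the strains: deviations of same-numbered arrays correlated at -0.22, 0.21 and 0.42. Mutant array 1 correlated best with wild-type array 3 (0.26). With the replicate block, 1131 genes were higher and 962 lower, and 5 members and 26 further pathway genes were called for the difference; SST2 was then called as well (adjusted p = 0.0306). With 3 arrays per strain, the simulated fit missed part of the changes of 1 on the log2 scale. The cause of each lost call was not tested.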

Other observations

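Among 11 genes around the silent mating cassettes, 5 rose and 3 fell in the mutant, 1 rose and 3 fell in wild type, and 3 had a higher ratio in the mutant with 0 lower. Over all genes, 33.7% rose and 31.9% fell in the mutant, 29.7% rose and 36.3% fell in wild type, and 24.8% were higher and 21.0% lower in the mutant, so most of these counts lie near those shares. ORC1, an origin recognition gene that also acts in silencing, lay at 0.76, 0.43 and 0.80 on the mutant arrays, against -0.28, -0.37 and 0.25 on the wild-type arrays (difference 0.80 ± 0.19, SE, limma adjusted p = 0.0134). That call was lost without wild-type array 1 (0.0611) or 2 (0.055) or mutant array 1 (0.0561), and on mutant arrays 1 and 3 the spots of ORC1 had an SD of 0.371 and 0.751. RFM1, a partner of the Sum1 repressor, differed by 0.62 ± 0.12 (adjusted p = 0.00668). HO, the endonuclease gene of mating type switching, had ratios of -2.60, -3.30 and -2.28 in the mutant, against -2.90, -2.68 and -3.09 in wild type, and fell in both strains (adjusted p = 2.3e-05 and 1.4e-05).

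Of 4 marker genes of diploid or meiotic cells, 1 rose and 2 fell in the mutant, where 33.7% of all genes rose and 31.9% fell. In wild type 1 rose and 0 fell, where 29.7% of all genes rose and 36.3% fell. For the strain difference 2 were lower in the mutant, where 21.0% of all genes were. The 2 that fell, SPO13 and SPO11, had spot SDs of up to 0.692 and 0.65 on the mutant arrays, and with the median of spots neither fall was called (-0.18, adjusted p = 0.0552, and -0.10, adjusted p = 0.308). SPO13 lay at -0.21, -0.40 and -0.53 in the mutant, against 0.23, 0.08 and 0.04 in wild type (difference -0.50, adjusted p = 0.0142), and SPO11 differed by -0.39 (adjusted p = 0.0182), or -0.27 with the median of spots (adjusted p = 0.093). With arrays centred on the deleted genes these were -0.26 and -0.15 and not called (adjusted p = 0.107 and 0.283). Without wild-type array 1 neither difference was called (0.06 and 0.0693), and that of SPO11 was also lost without mutant array 1 (0.0628).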
